A study of Mus musculus with 6 samples.

Results

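Adipokines are the hormones and hormone-like proteins that fat secretes. The genes followed here are 9 of them: Lep, Adipoq, Retn, Rbp4, Apln, Rarres2, Nrg4, Agt and Fst. They were found by name, so that each non-control probe whose gene name in the array files is 1 of these symbols was used. This gave 12 probes for the 9 genes, out of 55681 non-control probes with 34844 gene names. RNA of inguinal fat, the fat depot under the skin of the groin, from male C57BL/6J mice was hybridised to 1-colour Agilent arrays, with 3 arrays titled DIO_CR_WR and 3 titled DIO. The DIO_CR_WR mice were 2 months old when they began a high fat diet (60% of energy), which they ate freely for 1 month. Calorie restriction for about 3 weeks then brought them down to the body weight of the chow-fed mice, after which they regained weight on free access to the high fat diet. The DIO mice ate chow until that point and then the same high fat diet over the same final period, so both groups were on high fat diet when the fat was taken. The treatment text calls the first group DIO and the second controls, and the titles are followed here. Age labels were 9, 10 and 11 months for DIO_CR_WR replicates 1, 2 and 3 and 6, 7 and 8 months for DIO replicates 1, 2 and 3, so labelled age and group do not overlap. No age label occurs more than once, successive samples of the list differ by 1 month, and whether the labels give true ages is not known. Whether a sample is 1 mouse or a pool is not stated, and the p-values measure the spread between these samples.

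Leptin, made by adipocytes in step with their fat store, acts on the brain to limit feeding. Adiponectin circulates at high levels, signals through the receptors Adipor1 and Adipor2 and raises insulin sensitivity, and in mice resistin is made by adipocytes and opposes insulin action in liver. The other members have further roles: retinol transport in blood (Rbp4), a ligand of a vascular receptor (Apln), attraction of leukocytes and regulation of adipocyte formation (Rarres2, chemerin), a signal of thermogenic fat to the liver (Nrg4), the precursor of angiotensin (Agt) and a secreted binder of activins and myostatin (Fst). In whole tissue, fewer cells of a type and less RNA per cell cannot be told apart.

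The arrays differed in overall brightness before scaling. The 75th percentile of probe intensity lay between 5403 and 6370 on the DIO_CR_WR arrays and between 4108 and 4452 on the DIO arrays, while between 51.1% and 65.6% of probes were well above background in DIO_CR_WR and between 68.2% and 79.2% in DIO. Slide 1 held all 3 DIO_CR_WR arrays with DIO replicate 1, and slide 2 held DIO replicates 2 and 3, so a value with the slide as a block rests on DIO replicate 1 as its only DIO array. No probe on the array passed an adjusted p of 0.05 in limma's test (0 of 38458, 0%), while 26.3% had an unadjusted p under 0.05. The median log2 fold change of all probes, DIO_CR_WR over DIO, was −0.19, and it was 0.31 when arrays were scaled to spike-in probes. Each member's fold change below is therefore also given relative to that median, except for the dim probe 3 of Nrg4. Fold changes of other genes are given as they are, to be read against −0.19. The adipocyte markers were well above background on every array (14 of 14 genes). So were the 6 skeletal muscle markers, and these flags therefore cannot decide whether the samples are fat alone.

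Each value rests on a 60-base probe. Probes are printed for Retn and Nrg4, members that had probes with DIO_CR_WR wholly below DIO, as 25.9% of all probes do. The Adipoq probe is printed because 1 array went against its group. The printed probes hold no capitals because no base stands out. Their mm9 positions are chr16:23157576-23157635 on the plus strand for Adipoq, chr8:3657312-3657371 on the plus strand for Retn probe 2, and chr9:55075745-55084303 on the minus strand for Nrg4 probe 1. The Nrg4 probe spans 8559 bases of the genome and thus lies across a splice junction.
Adipoq: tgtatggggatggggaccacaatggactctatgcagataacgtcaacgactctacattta
Retn probe 2: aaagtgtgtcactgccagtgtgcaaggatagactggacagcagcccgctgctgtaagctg
Nrg4 probe 1: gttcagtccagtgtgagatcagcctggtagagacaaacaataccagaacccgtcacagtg

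Of the 9 genes, Retn and Nrg4 had probes whose arrays separated by group, with DIO_CR_WR below DIO, and Fst had the highest log2 fold change. None of the 12 probes passed the test over all probes (0 of 12, with adjusted p between 0.147 and 0.957 by limma). Where other settings called some probes, 0 members were among them: 0.0156% of probes passed with spike-in scaling, 13.9% without DIO replicate 1, and 0.175% among those well above background on all 6 arrays, a filter that Nrg4 probe 3 did not pass. At an unadjusted p under 0.05, 0 of 12 were higher in DIO_CR_WR, against 5.29% of all probes, and 2 of 12 were lower, against 21.0% of all probes. Both lower probes read Retn. The arrays of the groups did not overlap for 4 probes, both probes of Retn and 2 of the 3 of Nrg4, all with DIO_CR_WR below DIO, where 25.9% of all probes had DIO_CR_WR wholly below, 7.21% wholly above and 33.1% either. The members' median log2 fold change, over the 12 probes with the dim probe 3 of Nrg4 among them, was −0.38, against −0.19 for all probes. Lep, Adipoq and Fst were the 3 members above the median of all probes. With spike-in scaling Retn, Rbp4, Rarres2, Agt and Nrg4 probes 1 and 3 had log2 fold changes above 0 (0.08 to 0.23), while a difference relative to all probes, here the 38458 kept, does not depend on that scaling. That difference does depend on other choices. With quantile normalization it was 0.02 for both Retn probes and 0.01 for Rbp4, against −0.23 and −0.20 in the main fit. Without the filter on dim probes it was −0.37 for both Retn probes. For Lep it was then 0.04, against 0.18 in the main fit. All 12 probes passed the filter on dim signal, and probe 3 of Nrg4 passed only through its 3 DIO arrays.

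**Figure D1:**
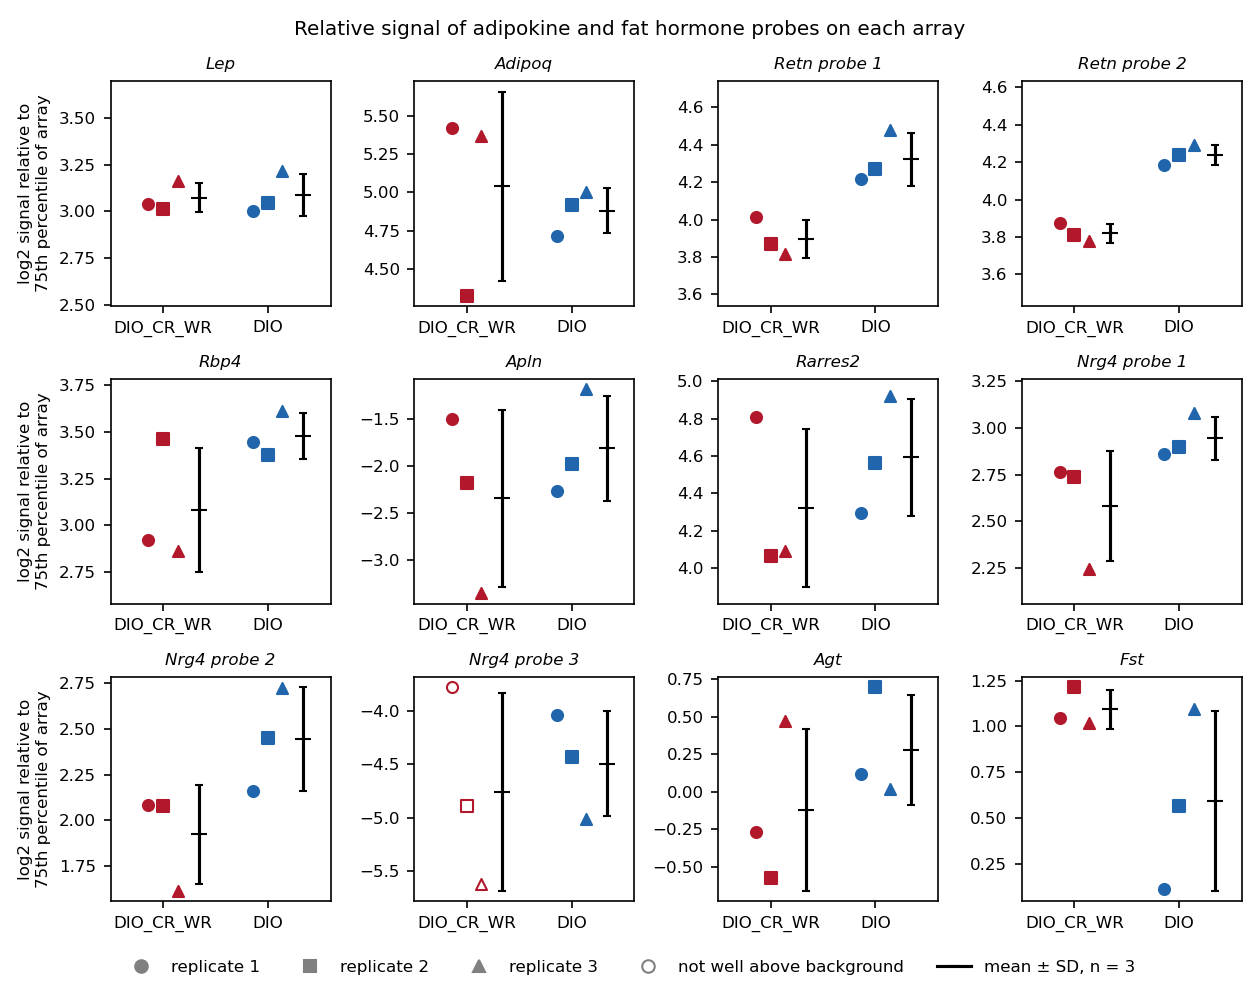
Relative signal of each of the 12 member probes (log2, with 0 at the array's 75th percentile) on the 3 DIO_CR_WR arrays (red, left) and the 3 DIO arrays (blue, right), each panel with its own axis. Symbols mark the replicate, open symbols a probe not well above background, and bars the mean ± SD. The groups separate for both Retn probes and for Nrg4 probes 1 and 2, with DIO_CR_WR below DIO, as they do for 25.9% of all probes.

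Leptin, the fat store's signal to the brain, differed between the groups by less than its error. In the units used from here on, relative signal is the log2 intensity minus that of the array's 75th percentile. Lep (chr6:29023234-29023293, plus strand, mm9) had a relative signal of 3.04, 3.01 and 3.16 on DIO_CR_WR arrays 1, 2 and 3, and of 3.00, 3.05 and 3.21 on DIO arrays 1, 2 and 3. The groups overlap throughout, and the highest array of each is its replicate 3. The means were 3.07 ± 0.08 in DIO_CR_WR and 3.09 ± 0.11 in DIO (SD, n = 3 each). The log2 fold change was −0.02 ± 0.15 (SE; limma adjusted p = 0.957), and its 95% interval, −0.38 to 0.35, corresponds to between 0.769 and 1.27 times the DIO level. Relative to all probes the difference was 0.18.

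Lep is also the member measured most often, since its probe is spotted 10 times on each array. Before scaling, its intensity was 52421, 49743 and 48315 on the DIO_CR_WR arrays and 35628, 35023 and 38127 on the DIO arrays, each the geometric mean of its unflagged spots. On that scale every DIO_CR_WR array is brighter than every DIO array, and the order is lost once each array is divided by its own 75th percentile. Spots of 1 array varied by 3.45% to 10.9% (coefficient of variation), and 4 of the 60 spots carried an outlier flag. On the log2 scale the SD between single spots of 1 array was 0.05 to 0.15, while the value of an array is the mean of its unflagged spots. With spike-in scaling, the log2 fold change was 0.49 (adjusted p = 0.229), and with quantile normalization it was 0.28 (adjusted p = 0.281). Relative to all probes these differences were 0.18 and 0.35.

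**Figure D2:**
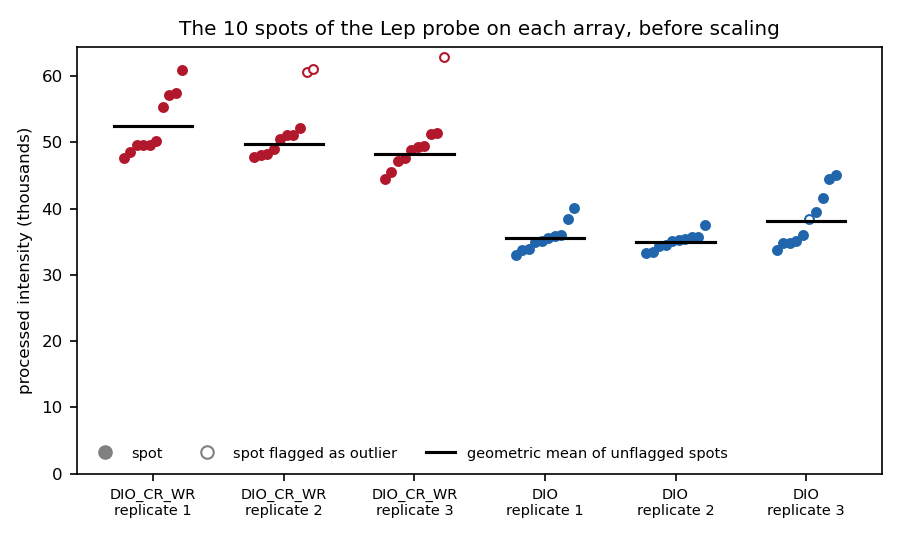
Processed intensity, before scaling between arrays, of the 10 Lep spots on each array, DIO_CR_WR (red) left of DIO (blue). Open points are spots flagged as outliers and lines are geometric means of the others, which lie between 48315 and 52421 in DIO_CR_WR and between 35023 and 38127 in DIO.

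Adiponectin varied more between DIO_CR_WR samples than between groups. Adipoq had a relative signal of 5.42, 4.33 and 5.37 on DIO_CR_WR arrays 1, 2 and 3, and of 4.72, 4.92 and 5.005 on DIO arrays 1, 2 and 3. DIO_CR_WR replicates 1 and 3 lie above all DIO arrays and replicate 2 below all of them. The SD was 0.62 in DIO_CR_WR and 0.15 in DIO (n = 3 each). Its log2 fold change was 0.16 ± 0.32 (SE; limma adjusted p = 0.773), or 0.35 relative to all probes. Without DIO_CR_WR replicate 2, picked out here after the values were seen, it was 0.52 (limma adjusted p = 0.295). Without DIO_CR_WR replicate 1 it was −0.03. The intensities of that probe, 273279, 123540 and 223207 in DIO_CR_WR and 117238, 127880 and 131883 in DIO, were not saturated on any array (0 spots).

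Both resistin probes had lower values in DIO_CR_WR, without passing the test over all probes. Probe 2 had a relative signal of 3.87, 3.81 and 3.78 on DIO_CR_WR arrays 1, 2 and 3, against 4.18, 4.24 and 4.29 on DIO arrays 1, 2 and 3. Probe 1 (chr8:3659757-3659816, plus strand) gave 4.01, 3.87 and 3.81 in DIO_CR_WR, against 4.22, 4.27 and 4.48 in DIO. On both probes every DIO_CR_WR array lies below every DIO array, a pattern held in this direction by 25.9% of all probes. The log2 fold changes were −0.42 ± 0.14 for probe 2 (0.748-fold; SE; limma adjusted p = 0.147, unadjusted p = 0.023) and −0.42 ± 0.16 for probe 1 (0.745-fold; adjusted p = 0.165, unadjusted p = 0.034). Relative to all probes they were −0.23 each.

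The resistin difference depends on how arrays are scaled. Before scaling, probe 2 had an intensity of 93426, 86248 and 74053 in DIO_CR_WR and of 80956, 80117 and 80547 in DIO, so the unscaled groups overlap. With spike-in scaling its log2 fold change was 0.08 (adjusted p = 0.828) and with quantile normalization −0.06 (adjusted p = 0.838). Blocking on the slide gave −0.36 (adjusted p = 0.535). The 2 probes share a transcript and an array, and their likeness is no second measurement of the mice.

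**Figure D3:**
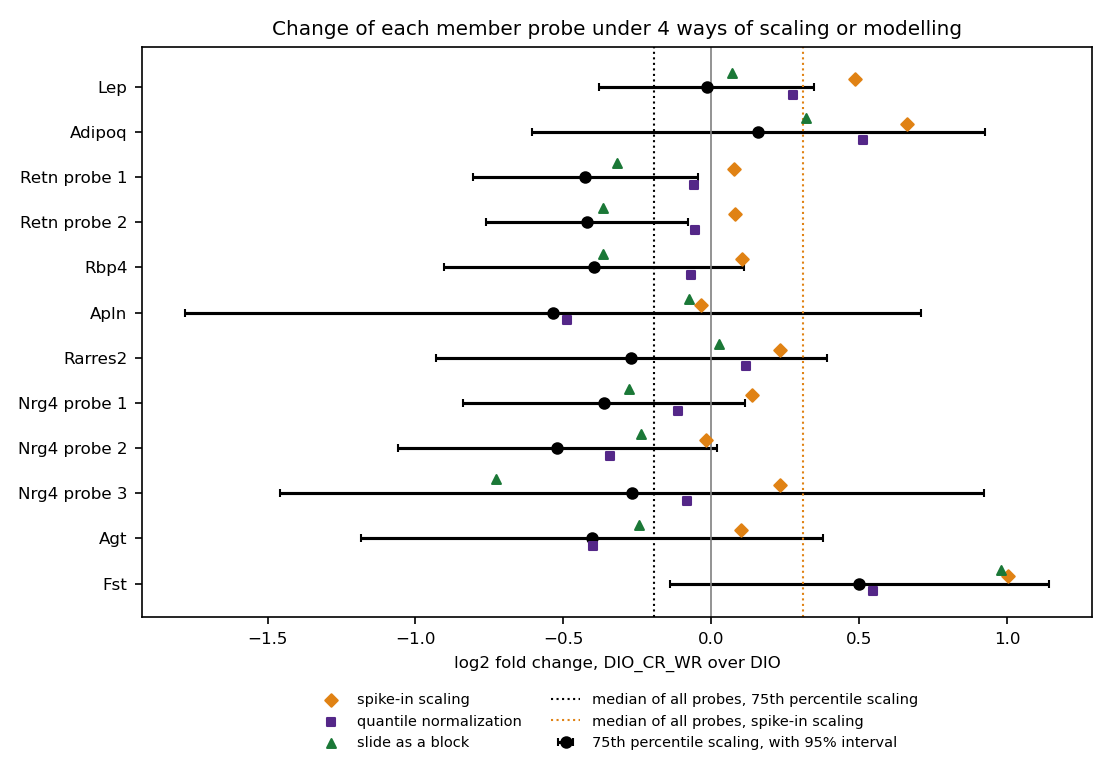
Log2 fold change, DIO_CR_WR over DIO, of each member probe with 75th percentile scaling (black, with 95% interval), spike-in scaling (orange), quantile normalization (purple) and the slide as a block (green). Dotted lines are the medians of all probes, −0.19 with 75th percentile scaling and 0.31 with spike-in scaling. Lep moved between −0.02 and 0.49 over these settings and Fst between 0.50 and 1.00. Nrg4 probe 3 was well above background on 0 of 3 DIO_CR_WR arrays, so its drawn values are not to be read as sizes.

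Retinol-binding protein and chemerin, a carrier and a leukocyte attractant, each had single arrays that lay among the other group. Rbp4 (chr19:38191120-38191179, minus strand) had a relative signal of 2.92, 3.46 and 2.86 in DIO_CR_WR and of 3.45, 3.38 and 3.61 in DIO. DIO_CR_WR replicates 1 and 3 lie below all DIO arrays, and replicate 2 among them. The log2 fold change was −0.40 ± 0.21 (SE; limma adjusted p = 0.272), and −0.20 relative to all probes. Without DIO_CR_WR replicate 2, picked out here because it lies among the other group, it was −0.59 (limma adjusted p = 0.293). Without DIO_CR_WR replicate 3 it was −0.29. The array that is highest for Rbp4 in DIO_CR_WR is thus the one that is lowest for Adipoq, and over the 6 arrays the 2 genes had a Pearson r of −0.76, given as a description of arrays that share 1 scaling factor per sample.

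Rarres2 (chr6:48519775-48519969, minus strand, across a splice junction) had a relative signal of 4.81, 4.07 and 4.09 in DIO_CR_WR and of 4.30, 4.56 and 4.92 in DIO. Replicate 1 of DIO_CR_WR is close to the top of the DIO range and replicates 2 and 3 lie below that range. Its log2 fold change was −0.27 ± 0.27 (SE; limma adjusted p = 0.552), −0.08 relative to all probes, and 0.03 with the slide as a block.

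Neuregulin 4, an EGF-like ligand of ERBB receptors that in mice is abundant in brown fat, had 3 probes, of which 2 separated the groups. Probe 1 had a relative signal of 2.77, 2.73 and 2.24 in DIO_CR_WR and of 2.86, 2.90 and 3.08 in DIO. Probe 2 (chr9:55068030-55068089, minus strand) gave 2.08, 2.08 and 1.61 in DIO_CR_WR, against 2.16, 2.45 and 2.73 in DIO. On both, all DIO_CR_WR arrays lie below all DIO arrays, with replicate 3 the lowest and replicates 1 and 2 just under the DIO range. Of all probes 25.9% separate in this direction. The log2 fold changes were −0.36 ± 0.20 (SE; limma adjusted p = 0.282) for probe 1 and −0.52 ± 0.22 (adjusted p = 0.201) for probe 2. Relative to all probes they were −0.17 and −0.33. Blocking on the slide gave −0.28 and −0.24. Probe 3 (chr9:55088520-55088579, minus strand), designed on a cDNA clone, was well above background on 0 of 3 DIO_CR_WR and 3 of 3 DIO arrays. Its relative signal was −3.78, −4.89 and −5.62 in DIO_CR_WR and −4.04, −4.43 and −5.02 in DIO (limma adjusted p = 0.754). DIO_CR_WR replicate 1 lies above all DIO arrays and replicate 3 below them. For a probe this dim the main fold change is not given, and its values under other settings are given only for their direction. The markers of brown and beige adipocytes, 5 of 5 kept, had a median log2 fold change of −0.58 and 1 gene lower at an unadjusted p under 0.05, where 21.2% of all genes were lower, with scores of −0.83 to 0.17 in DIO_CR_WR and −0.53 to 0.72 in DIO, and their part in the Nrg4 values was not tested.

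Apelin and angiotensinogen, the ligand and the ligand precursor of the 2 vascular peptide systems, had wide spreads. Apln (chrX:45378593-45378652, minus strand) had a relative signal of −1.49, −2.18 and −3.36 in DIO_CR_WR and of −2.27, −1.98 and −1.18 in DIO. The lowest array by far is DIO_CR_WR replicate 3, and the groups overlap. Its log2 fold change, −0.54 ± 0.52 (SE; limma adjusted p = 0.531), was −0.03 without DIO_CR_WR replicate 3 and −0.96 without DIO_CR_WR replicate 1. Agt (chr8:127083142-127083201, minus strand) had −0.27, −0.58 and 0.47 in DIO_CR_WR and 0.12, 0.69 and 0.02 in DIO. Here DIO_CR_WR replicate 3 is the high array of its group and lies inside the DIO range. The log2 fold change was −0.40 ± 0.33 (adjusted p = 0.454 by limma). Without that high array, picked out here after the values were seen, it was −0.70 (limma adjusted p = 0.207). Without DIO_CR_WR replicate 2 it was −0.18. Relative to all probes the Apln change was −0.34 and the Agt change −0.21. The 95% interval of the Apln change runs from −1.78 to 0.71 and that of Agt from −1.18 to 0.38, so a 2-fold decrease lies within both.

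Follistatin was the member with the highest log2 fold change, 0.50 ± 0.27 (1.42-fold; SE; limma adjusted p = 0.271), or 0.69 relative to all probes. Fst (chr13:115243565-115243624, minus strand) had a relative signal of 1.05, 1.21 and 1.02 in DIO_CR_WR and of 0.11, 0.57 and 1.096 in DIO. The DIO_CR_WR arrays lie close together (SD 0.11), the DIO arrays are spread (SD 0.49), and DIO replicate 3 lies inside the DIO_CR_WR range. Without DIO replicate 3, picked out here after the values were seen, the log2 fold change was 0.75 (limma adjusted p = 0.215). Without DIO replicate 1 it was 0.26. Blocking on the slide gave 0.98. With spike-in scaling the log2 fold change was 1.00 (limma adjusted p = 0.114), where the median of all probes was 0.31. Relative to all probes it was 0.69 under that scaling too. With labelled age as a covariate the log2 fold change was −0.21, a value that rests on age labels that may not be true ages.

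The genes that the members act through or with are given next, each by its brightest probe. Of 72 such genes kept, 0 passed over all probes. The background for an unadjusted p under 0.05 is 5.24% of 26178 genes in the higher and 21.2% in the lower direction. For groups that do not overlap it is 7.21% of all probes with DIO_CR_WR above and 25.9% with DIO_CR_WR below. Where a gene has several kept probes, which 14 do, 5 have a probe of the other sign. At that same threshold, leptin signalling had 0 of 6 genes higher and 1 lower, and a median log2 fold change of −0.01. The lower gene was Sh2b1, an adaptor of the kinase Jak2 (−0.43 ± 0.17 SE, limma adjusted p = 0.172; 0.07 with spike-in scaling). Socs3, which leptin induces and which damps its signal, had 0.35 ± 0.18 (adjusted p = 0.246 by limma) without overlap between the groups. The receptor gene Lepr had −0.14 ± 0.23 (limma adjusted p = 0.713) on its brightest probe. The log2 fold changes of the 3 kept Lepr probes ran from −0.999 to −0.144, so the brightest probe gave the smallest decrease.

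Around adiponectin the threshold was met by 0 of 7 genes in either direction. The receptor genes Adipor1 and Adipor2 had log2 fold changes of 0.03 ± 0.16 and 0.14 ± 0.21 (SE; limma adjusted p = 0.911 and 0.699), and Cdh13, the cadherin that binds circulating adiponectin, −0.24 ± 0.18 (adjusted p = 0.407). Of the genes for adiponectin assembly in the endoplasmic reticulum, Ero1l had 0.40 ± 0.20 and Gstk1 −0.29 ± 0.15 (limma adjusted p = 0.244 and 0.255). Among 4 kept genes of the resistin family and its proposed binding partners, 1 met it, and was higher. This was Tlr4, the receptor for bacterial lipopolysaccharide, whose brightest probe had 1.70 ± 0.43 (limma adjusted p = 0.128) while its other kept probe had −0.43; blocking on the slide lowered the first value to 0.72. Its relative signal was 0.14, 0.28 and 0.35 in DIO_CR_WR and −0.47, −1.70 and −2.18 in DIO, with DIO replicate 1, on the slide of the DIO_CR_WR arrays, nearest to them. Cap1 had 0.22 ± 0.19 and the resistin relative Retnlg 0.61 ± 0.36 (limma adjusted p = 0.493 and 0.310).

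For retinol, apelin and chemerin 0 of the 10 kept genes passed an unadjusted p of 0.05. Stra6, the Rbp4 receptor, was well above background on 0 of 3 DIO_CR_WR and 2 of 3 DIO arrays and was not tested, and Ttr, the partner of Rbp4 in blood, had a log2 fold change of 0.55 ± 1.105 (SE; limma adjusted p = 0.776). Rdh10, which oxidises retinol, had 0.23 ± 0.23 and Stra6l, a relative of Stra6, had 0.48 ± 0.79 (limma adjusted p = 0.543 and 0.720). The apelin receptor gene Aplnr had 0.61 ± 0.46 (limma adjusted p = 0.426), which blocking on the slide raised to 1.24. The chemerin receptor gene Cmklr1 had 0.23 ± 0.20, Gpr1, also a chemerin receptor, 0.34 ± 0.22 and Ccrl2, which binds chemerin without signalling, −0.29 ± 0.16 (limma adjusted p = 0.480, 0.343 and 0.284).

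Among neuregulins and ERBB receptors 0 of 4 kept genes were called at that threshold. Erbb4, a receptor for Nrg4, had a log2 fold change of −0.68 ± 0.51 (SE; limma adjusted p = 0.426), and Erbb3 was well above background on 0 of 3 DIO_CR_WR and 2 of 3 DIO arrays. Nrg2 had 0.41 ± 0.77 (limma adjusted p = 0.760) on its brightest probe and −0.06 on the other. In the renin-angiotensin system 1 of 9 kept genes was higher and 1 lower. Enpep, an aminopeptidase that cleaves angiotensin II, had 0.57 ± 0.18 (limma adjusted p = 0.142; 0.31 with the slide as a block), with every DIO_CR_WR array above every DIO array. The lower one, Mas1, the receptor of angiotensin 1-7, was well above background on 1 of 3 DIO_CR_WR and 3 of 3 DIO arrays (limma adjusted p = 0.185). It thus passed the filter on dim signal only through the DIO arrays, and no fold is given for it. The angiotensin receptor gene Agtr1a had 0.04 ± 0.21 and the converting enzyme gene Ace 0.41 ± 0.21 (limma adjusted p = 0.928 and 0.257).

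Follistatin binds activins, and in that system 1 of 10 genes met an unadjusted p under 0.05. The lower gene, Acvr2b, a receptor for activin and myostatin, had a relative signal of 0.19, −0.20 and −0.07 in DIO_CR_WR and of 0.58, 0.76 and 0.86 in DIO. Every DIO_CR_WR array lies below every DIO array, and the log2 fold change was −0.76 ± 0.18 (SE; limma adjusted p = 0.126), −0.60 after blocking on the slide and −0.25 after scaling to spike-ins. The other type II receptor gene, Acvr2a, had 0.11 ± 0.17 (limma adjusted p = 0.719). The activin subunit genes Inhba and Inhbb had 0.45 ± 0.26 and −0.05 ± 0.26 (limma adjusted p = 0.296 and 0.921).

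Of 22 further adipokines and cytokines of fat that were kept, 4 met that threshold, 2 in each direction, and the median log2 fold change was 0.07. The higher ones were Il6, an inflammatory cytokine, at 1.07 ± 0.23, and C1qtnf5, a relative of adiponectin, at 0.80 ± 0.24 (SE; limma adjusted p = 0.124 and 0.136). Blocking on the slide lowered these values to 0.72 and 0.40. Il6 was well above background on 2 of 3 DIO_CR_WR and 3 of 3 DIO arrays. Its relative signal was −5.31, −4.73 and −4.99 in DIO_CR_WR and −5.74, −6.23 and −6.28 in DIO. The lowest value well above background was −4.11, −5.43 and −5.90 on DIO_CR_WR arrays 1, 2 and 3. On the DIO arrays it was −7.13 to −6.28. The part of this limit in the Il6 difference was not tested. The lower ones were Cfd, or adipsin, the complement protease of fat, at −0.83 ± 0.20, and Itln1, or omentin (limma adjusted p = 0.127 and 0.139). Cfd had a relative signal of 4.34, 3.96 and 4.03 in DIO_CR_WR and of 4.65, 5.09 and 5.07 in DIO. Its groups do not overlap, and its log2 fold change kept its direction at −0.54 after blocking on the slide and −0.33 after scaling to spike-ins. Itln1 was well above background on 1 of 3 DIO_CR_WR and 3 of 3 DIO arrays, so that it too passed the filter only through the DIO arrays and no fold is given. C1qtnf5 and Itln1 are named because so few were counted, after their values were seen.

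**Figure D4:**
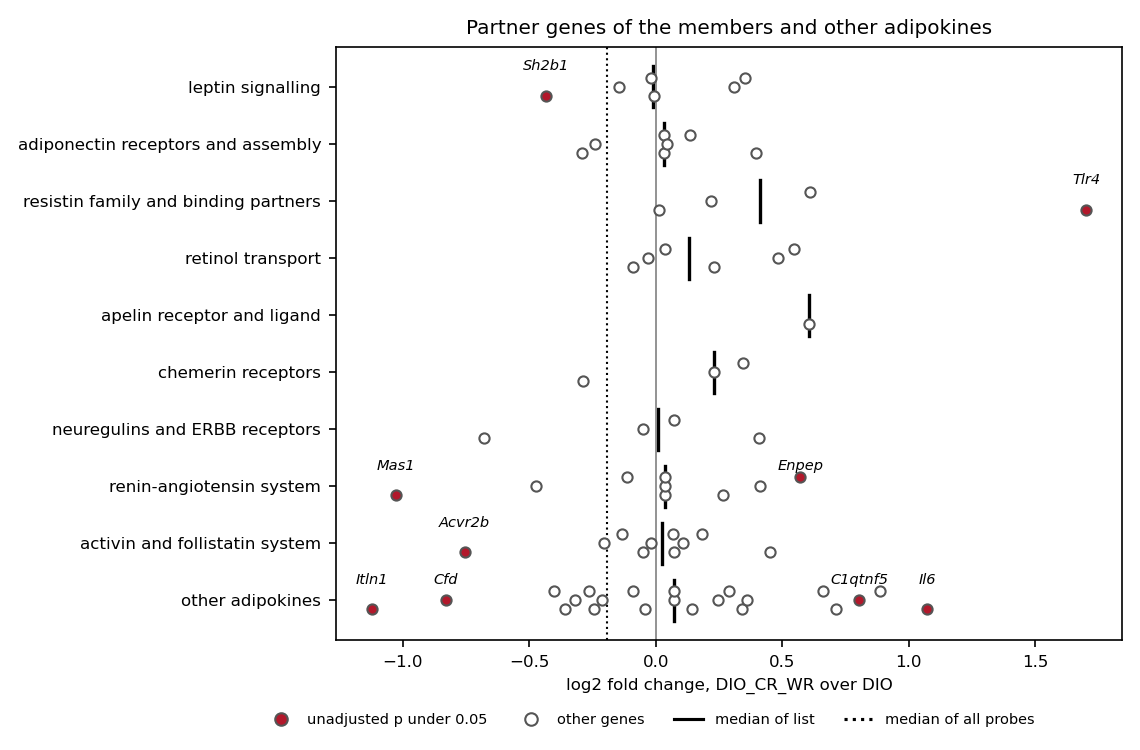
Log2 fold change, DIO_CR_WR over DIO, of the receptors, partners and further adipokines, 1 point per gene by its brightest probe, grouped by list. Filled points had an unadjusted p under 0.05, thick bars are list medians and the dotted line is the median of all probes, −0.19. The 9 filled points include Tlr4 at 1.70, whose other probe had −0.43. They also include Mas1 and Itln1, each well above background on 1 of 3 DIO_CR_WR arrays, whose drawn values are not to be read as sizes.

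Markers of the cell types in such tissue are given beside these values, against 5.24% of all genes higher and 21.2% lower at the same threshold. At an unadjusted p under 0.05, 3 of 14 adipocyte markers were lower and 0 higher (Cd36, Slc2a4 and Lipe, with log2 fold changes of −0.66, −0.54 and −0.55), a share close to that of all genes, and the adipocyte score, the mean deviation of the markers from their means minus that of all probes, was −0.17 to 0.01 in DIO_CR_WR and −0.04 to 0.14 in DIO. Of 8 markers of T and NK cells 5 were higher and 0 lower, with scores of 0.42 to 1.00 in DIO_CR_WR and −1.03 to −0.04 in DIO. Of 6 macrophage markers 2 were higher and 0 lower, with scores of 0.17 to 0.31 in DIO_CR_WR and −0.49 to 0.08 in DIO. Of the 14 cell type markers with several kept probes, 4 have a probe of the other sign. They are the macrophage markers Cd68, Csf1r and Itgam and the adipocyte marker Adrb3. Of 4 endothelial markers 2 were higher and 0 lower, with scores of 0.13 to 0.27 in DIO_CR_WR and −0.34 to −0.14 in DIO. Of 6 skeletal muscle markers, all well above background on every array, 0 were higher and 2 lower, with scores of −0.42 to 0.06 in DIO_CR_WR and −0.17 to 0.34 in DIO. Of 5 markers of fibroblasts and progenitors 1 was higher and 0 lower, of 2 kept B cell markers 1 was higher and 0 lower, and of 4 kept epithelial markers 0 met the threshold. The part of these shifts in the values of Lep, Adipoq, Retn and the other members was not tested.

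The genes most like a member over the 6 arrays differed between members. Among 15215 named genes, each by its brightest probe, Retn had the most partners, with 930 at a Pearson r above 0.9, against 52 for Lep and 42 for Adipoq. The 3 closest to Retn were Def8, Fgfr1op and Rmnd1 (r = 0.997, 0.997 and 0.996). Those closest to Lep were Fam86, Dlg5 and Cpsf4 (r = 0.978, 0.977 and 0.973), and those closest to Adipoq were Ctla4, Otos and Ms4a4c (r = 0.990, 0.983 and 0.982). Among the members, Retn and Nrg4 had r = 0.85 and Apln and Nrg4 r = 0.89. With so few arrays and a choice among so many genes, values of this size describe these arrays and carry no test.

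The promoters of Lep, Adipoq and Retn are shown because these hormones are made chiefly by adipocytes in mice. None of these genes passed the test over all probes, and the promoters are not set against their values. The 250 bases before the start in RefSeq's table for GRCm38.p6 were searched on both strands for 5 patterns, and matches are in capitals. TATAAA is the TATA box, and CCAAT is the box of that name. TTNNGCAA is a site of C/EBP factors, while the half-site of nuclear receptors is written AGGTCA and the E-box CACGTG. The E-box reads the same on both strands, and the C/EBP pattern can match both at 1 place. They lie at chr6:29059971-29060220, chr16:23146286-23146535 and chr8:3655520-3655769, all on the plus strand.
Lep: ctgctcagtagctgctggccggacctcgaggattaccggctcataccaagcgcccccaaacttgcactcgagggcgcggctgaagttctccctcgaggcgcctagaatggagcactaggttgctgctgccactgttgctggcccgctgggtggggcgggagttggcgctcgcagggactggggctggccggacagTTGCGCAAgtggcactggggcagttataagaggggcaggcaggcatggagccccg
Adipoq: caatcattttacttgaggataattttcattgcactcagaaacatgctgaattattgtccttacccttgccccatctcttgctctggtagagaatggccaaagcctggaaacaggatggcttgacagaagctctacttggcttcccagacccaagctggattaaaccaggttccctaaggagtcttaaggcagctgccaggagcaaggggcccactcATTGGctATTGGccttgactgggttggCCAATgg
Retn: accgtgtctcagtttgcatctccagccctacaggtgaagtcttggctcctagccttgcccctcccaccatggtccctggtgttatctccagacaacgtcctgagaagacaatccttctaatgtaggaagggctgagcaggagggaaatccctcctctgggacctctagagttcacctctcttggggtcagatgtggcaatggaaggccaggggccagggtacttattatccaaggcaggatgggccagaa

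The Lep window holds the C/EBP pattern at −55 to −48, as do 9.56% of 32851 windows of this length. The Adipoq window holds CCAAT 3 times, at −34 to −30 and −27 to −23 on the reverse strand and at −7 to −3 on the forward strand, where 33.8% of windows hold it at least once. The Retn window holds none of the 5 patterns (0). Of 7 members with a window in the table, TATAAA was found for Rbp4 and Agt (12.4% of windows), the nuclear receptor half-site for Nrg4 at −90 to −85 and −26 to −21 (14.0% of windows), and CACGTG for 0 (6.02% of windows). Rbp4 has a second start whose window holds both TATAAA and the C/EBP pattern. A match to letters is a description and not a bound site.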

How the data were processed

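RNA of inguinal fat from 6 samples, 3 DIO_CR_WR and 3 DIO, was measured on 1-colour Agilent arrays, with Cy3 cRNA made from 0.5 µg of RNA per the labels' protocols. The deposited values are spot intensities (gProcessedSignal) that Feature Extraction corrected for background, in version 10.7.3.1 per the file headers and 10.7.1.1 per the submitters' processing notes. The deposited files also hold the mean intensity and local background of each spot, and flags, as other values of 0 or 1. A further deposited file covering all samples, with 18 value columns, was not used, because its columns are named DIO and CTR and do not match the sample titles.

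Outlier spots were set to missing and spots of a probe averaged on the log2 scale. Each array was scaled by its 75th percentile over 55681 non-control probes. Probes well above background on at least 3 of 6 arrays numbered 38744, of which 286 lacked a value on some array because of an outlier flag and were dropped. The groups were compared by limma 3.58.1 in R 4.3.3 (lmFit and eBayes, two-sided), with Benjamini-Hochberg adjustment over 38458 probes at 0.05, and the procedure was tested on simulated data. For the lists, a gene was given by its brightest probe over the 6 arrays. No precision beyond the number of arrays, 3 a group, can be had, and an exact permutation test of 3 against 3 cannot go below 0.1.

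All 9 members were named with every probe. From each list the 2 genes with the smallest unadjusted p were named, with the members' receptors and binding partners, and the 3 named genes most like Lep, Adipoq and Retn. The members and lists were chosen with earlier results of these data known. Replicate numbers were not treated as pairs, since no label states a pairing. Alternatives covered background correction (normexp, offset 50), normalization (quantile, median, 8 of 10 E1A spike-in probes), filters, probe summaries, variance model, thresholds, replicate or slide as a block, slide 1 alone, labelled age and leaving out each array. Probe positions are those of the array files, on mm9, and promoters come from RefSeq on GRCm38.p6, which matched 7 of 9 members.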

Additional observations from a re-analysis of the deposited data

How the results depend on the processing

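No member passed an adjusted p of 0.05 under any of the alternatives run. Over all probes, 0 passed, but 6 did with spike-in scaling and 48 when all 6 arrays had to be well above background, while leaving out 1 array gave 0 to 5361, the highest without DIO replicate 1, when the groups no longer share a slide. With the replicate block 0 probes passed (smallest adjusted p 0.163), and no member passed, while both Retn probes had an unadjusted p under 0.05 without the block (0.034 and 0.023 for probes 1 and 2) and above it with the block (0.084 and 0.067). Deviations of same-numbered arrays from their group means correlated at −0.21 to 0.00 across probes, and those of other pairs at −0.08 to 0.22. With so few arrays, and slides divided unevenly between the groups, these ranges cannot decide whether the numbers pair the samples. The direction of single member probes turned in 26 results, and the cause was not tested. Settings that change only the filter, the variance model, the threshold or the replicate block leave a probe's fold change as it is and show nothing about its direction. For Lep, near 0, it turned with normexp (0.24), quantile normalization (0.28), median centring (0.10), spike-in scaling (0.49), and slide as a block or slide 1 alone (0.071 each). Leaving out 1 array gave Lep −0.060 to 0.048, turned without DIO_CR_WR replicate 1, DIO_CR_WR replicate 2 or DIO replicate 3. Spike-in scaling, which moved the median of all probes to 0.31, also turned Retn probes 1 and 2 (0.077 and 0.082), Rbp4 (0.11), Rarres2 (0.23), Nrg4 probes 1 and 3 (0.14 and 0.23) and Agt (0.099), while Apln (−0.03) and Nrg4 probe 2 (−0.02) stayed below 0. Rarres2 also turned with quantile normalization (0.12) and slide as a block or slide 1 alone (0.026 each). Labelled age as a covariate, from labels that may not be true ages, turned Adipoq (−0.014), Apln (0.050), Nrg4 probe 3 (1.85) and Fst (−0.21). Leaving out 1 array gave Adipoq −0.032 to 0.52, turned without DIO_CR_WR replicate 1 or 3, and Nrg4 probe 3 −0.76 to 0.16, turned without DIO_CR_WR replicate 3. With 1 value per gene the dimmer probes of Retn and Nrg4 have no value of their own, and Nrg4 probe 3 has none when all 6 arrays must be well above background. Signal over background limits Nrg4 probe 3 and, among the partner genes and further adipokines, Mas1, Itln1, Il6, Stra6 and Erbb3.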
